A study of Mus musculus with 3 samples.

Results

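The genes described here encode proteins of the splicing machinery and its best known regulators. They are the SR proteins, the heterogeneous nuclear ribonucleoproteins (hnRNPs), the SF3a and SF3b proteins, the U2AF proteins, the Snrp proteins and the numbered Prpf proteins. Members were chosen by gene symbol alone, with no measured value, and 68 of the 17857 genes in the count table matched. Total RNA was sequenced from 1 population, labelled ckit_pos, in 3 repeat libraries and with no control group. B16F10 melanoma cells had been implanted in both thighs of C57BL/6 mice, tagged C57BL/6J in the labels, and were left untreated for 14 days. Draining lymph nodes were pooled, mechanically dispersed, and sorted for cells with Ly6C and c-kit and without CD11c, a population that the labels call precursor cells. The sources used here give neither the number of mice in a pool nor their age. The p-values below cover only the variation among these 3 repeats, part of which may be technical. In bulk samples such as these, fewer cells of a type and less RNA per cell cannot be told apart.

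Introns are removed from nuclear transcripts by the spliceosome, which assembles anew on each intron from small nuclear ribonucleoproteins (snRNPs). The U1 snRNP pairs with the donor site at the start of the intron, while U2AF and the U2 snRNP, with its SF3a and SF3b proteins, recognise the branch point and acceptor site near the end. The U4/U6.U5 tri-snRNP, rich in Prpf proteins, then joins and is rearranged into the catalytic form. A ring of Sm proteins forms the core of most of these particles. SR proteins bind exons and usually favour their inclusion, and hnRNPs coat nascent RNA and often oppose it. In lymphocytes these regulators set, among others, the isoforms of the leukocyte antigen CD45.

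The libraries held 9077195, 13885509 and 13861430 counts in replicates 1, 2 and 3, and values per library are given in that order throughout. A count of 0 allowed up to 0.317, 0.214 and 0.228 CPM (3 counts), a limit that covers counting error only. The libraries differed in makeup. Mitochondrial ribosomal RNA took 17.8%, 6.22% and 13.1% of the counts. Summed levels of marker lists were 67.4, 174 and 88.8 CPM for the 4 sort genes (Kit, Ly6c1, Ly6c2 and Itgax), 3269.6, 4125 and 4056 CPM for 9 T cell genes, 304, 119 and 163 CPM for 6 B cell genes, and 58.3, 494 and 199 CPM for 5 NK cell genes. They were 602, 783 and 315 CPM for 5 monocyte genes, 1110.1, 99.8 and 239.5 CPM for 8 macrophage genes, 201, 71.9 and 751 CPM for 7 neutrophil genes, 4285, 64.6 and 308 CPM for 7 erythroid genes, and 1269, 146 and 257 CPM for 7 cell cycle genes. None of the list genes analysed stood at 0 in all 3 libraries. The neutrophil gene Ly6g was at 0 in replicates 1 and 2, and the macrophage gene Vsig4 and the erythroid gene Epor were at 0 in replicate 2. The erythroid gene Ahsp was not analysed here. Within the sort genes, Kit, which encodes c-kit, had 9.83, 5.35 and 5.92 CPM and lay below the median gene tested per kilobase of length (log2 difference -2.02, adjusted p = 0.00192, edgeR's quasi-likelihood test). Itgax, the gene of CD11c, for which cells were to be negative, had 26.9, 43.2 and 24.0 CPM and per kilobase also exceeded Kit in every library (6.69, 10.7 and 5.96 CPM per kilobase for Itgax, 1.90, 1.03 and 1.14 for Kit). By transcript, the order of these 2 genes runs opposite to the label of a c-kit-positive population without CD11c. The 2 Ly6C genes differed from each other. Ly6c2 had 11.5, 121 and 41.2 CPM and lay above the median gene tested per kilobase (log2 difference 3.72, adjusted p = 8.16e-06, same test). Ly6c1 had 19.1, 4.28 and 17.6 CPM and was not separated from that median (adjusted p = 0.150). Ly6c2 was thus highest in replicate 2, where Ly6c1 was lowest. The label describes a sort by protein, and protein was not measured here, so transcript levels cannot decide whether the label holds. Genes of T cells, a lineage the labels do not name, thus had a summed level over 10 times that of the sort genes in each library. The part of these other cell types in the levels below was not tested.

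All but 1 of the splicing genes were read at more than 1 CPM, and most stood high among all genes. Summed, the 68 genes had 10855, 12843 and 13527 CPM, which is 1.13%, 1.30% and 1.28% of all counts. The level of a gene was tested with edgeR's quasi-likelihood method against fixed levels, two-sided, with Benjamini-Hochberg adjustment over the 15490 genes that had at least 10 counts in sum. Adjusted p denotes this test, and an adjusted p under 0.05 is a call. Of the 68 members, 67 were tested, and Snrpn, with 0, 5 and 0 counts, was not. All 67 lay above 1 CPM, as did 68.6% of all genes tested. Above 50 CPM lay 43 of the 67 (64.2%) against 19.9% of all genes, and below it 15 of the 67 against 66.7% of all genes. The other 9 were not separated from 50 CPM. The median member had 92.4 CPM, against 12.4 CPM for the median gene.

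Levels of different genes compare only per length, so CPM were also divided by the gene length given in the table. On that scale the median member had 39.3 CPM per kilobase, against 5.50 CPM per kilobase for the median gene. Above this median gene lay 62 of the 67 members, against 43% of all genes tested, and below it 1 member, against 19.1% of all genes. That 1 member was the SR protein gene Srsf12. Snrpc, Prpf4, Prpf40b and Sf3b4 were not separated from the median gene (adjusted p between 0.0682 and 0.969). The median gene per kilobase is a property of the genes tested, and without replicate 1, when fewer low genes were tested, 59 members lay above it.

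**Figure D1:**
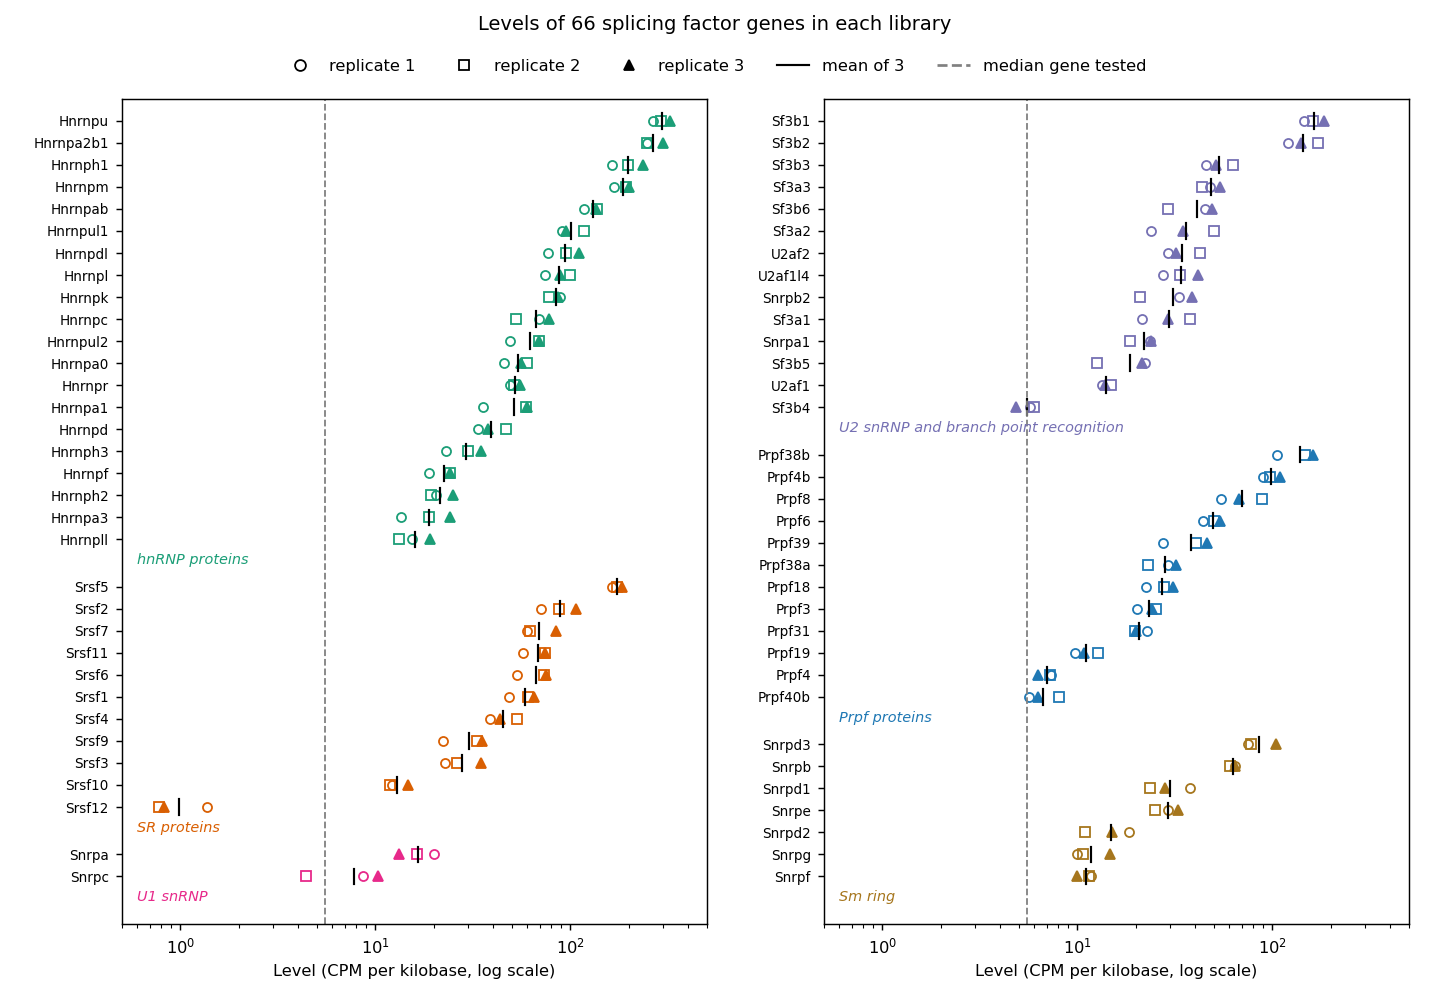
Levels of 66 of the 67 tested splicing genes in CPM per kilobase (log scale), with 1 marker per library, a black bar at the mean of the 3 libraries, and genes grouped by role. The dashed line is the median of all genes tested, 5.50 CPM per kilobase, and Srsf12 stands to its left in each library.

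The hnRNP genes were the most abundant group, with a median of 64.5 CPM per kilobase over 20 genes. Of these, 17 lay above 50 CPM, 3 were not separated from it, and all 20 lay above the median gene per kilobase. Hnrnpu (Entrez gene 51810, chromosome 1, 178321108 to 178338891), whose product binds RNA and chromatin in the nuclear scaffold, had 981, 1075 and 1189.6 CPM, or 295 ± 28.5 CPM per kilobase (SD, n = 3), the highest mean level of any member on the table's length. In CPM alone it lay below Hnrnpa2b1 in replicates 1 and 3. Hnrnpa2b1, which packages and transports RNA, had 1008, 1010.2 and 1221 CPM (264 ± 29.9 CPM per kilobase). Hnrnph1, which binds runs of guanine, had 365, 438 and 524 CPM (199 ± 35.8 CPM per kilobase). Each of the 3 genes was highest in replicate 3, and all were above the median gene, with adjusted p of 4.48e-10 for Hnrnpu, 6.04e-10 for Hnrnpa2b1 and 9.43e-10 for Hnrnph1. Hnrnpm (187 CPM per kilobase), Hnrnpab (130.3) and Hnrnpul1 (101) followed. At the lower end, Hnrnpa3, a close relative of Hnrnpa2b1, had 70.6, 98.99 and 126 CPM (18.8 ± 5.26 CPM per kilobase), and Hnrnpll had 47.9, 41.4 and 59.4 CPM (15.9 ± 2.92 CPM per kilobase). Hnrnpll (Entrez gene 72692, chromosome 17, 80029487 to 80062268) encodes the protein that silences alternative exons of CD45 in activated lymphocytes. It was the lowest hnRNP gene per kilobase on the table's length, with the lowest library (replicate 2) at 13.3 CPM per kilobase. Hnrnpll still lay above the median gene (log2 difference 1.53, adjusted p = 1.44e-05). Hnrnpll, Hnrnph2 and Hnrnph3 were the 3 not separated from 50 CPM, with adjusted p of 0.943 for Hnrnpll, 0.866 for Hnrnph2 and 0.0651 for Hnrnph3. Hnrnph3 did pass, above 50 CPM, without replicate 1 (0.0247), and Hnrnpf no longer passed without replicate 2 (0.0735) or without replicate 3 (0.177).

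The 11 SR protein genes had a median of 58.3 CPM per kilobase, close to the hnRNP genes, but spanned a wider range. Of these, 9 lay above 50 CPM and 10 above the median gene per kilobase. Srsf5 (Entrez gene 20384, chromosome 12, 80945495 to 80950507) had 269.8, 287 and 303 CPM (173 ± 10.1 CPM per kilobase) and was the highest, with little difference between libraries. Srsf2, which marks the nuclear speckles where splicing factors gather, had 134, 167 and 203 CPM (88.4 ± 18.2 CPM per kilobase). Srsf7, which also takes part in export of messenger RNA, had 165, 171 and 232 CPM (68.8 ± 13.6 CPM per kilobase). Srsf1, the prototype of the family, which binds exonic enhancers, had 256, 320.4 and 344 CPM (58.3 ± 8.64 CPM per kilobase). Srsf2, Srsf7 and Srsf1 were each lowest in replicate 1 and highest in replicate 3. Against the median gene, adjusted p was 7.15e-10 for Srsf5 and 2.27e-08 for Srsf1. The 2 lowest genes were Srsf10 and Srsf12. Srsf10, whose dephosphorylated product represses splicing, had 66.8, 65.3 and 80.96 CPM (12.9 ± 1.57 CPM per kilobase) and lay above 50 CPM (adjusted p = 0.0113), a call that was lost without replicate 3 (0.138). Srsf12 (Entrez gene 272009, chromosome 4, 33208991 to 33233343), a small relative that counters other SR proteins, had 4.02, 2.28 and 2.43 CPM (0.990 ± 0.327 CPM per kilobase), from 38, 32 and 32 counts. It was highest in replicate 1, and its level stood 0.990 CPM per kilobase against 12.9 for the next SR gene. Srsf12 lay above 1 CPM (adjusted p = 0.0122) and below the median gene per kilobase (log2 difference -2.48, adjusted p = 0.0122). Srsf9 was not separated from 50 CPM (0.0711) but lay below it without replicate 2 (0.0393). Neither call of Srsf12 passed without replicate 3, when adjusted p was 0.0726 against 1 CPM and 0.116 against the median gene.

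The promoters of the highest hnRNP, SR and U2 genes and of the lowest member tested are printed to show what was found near their start sites. The sequences are RefSeq's, for GRCm38.p6, and run 5′ to 3′ on the gene's strand from 250 bases before to 50 bases after an annotated start. Capitals mark the letters GGGCGG of the SP motif and CCGGAAG of the ETS motif on either strand, with overlaps kept. Hnrnpu's promoter lies at chr1:178337766-178338065 on the minus strand, Sf3b1's at chr1:55027429-55027728 on the minus strand, Srsf5's at chr12:80945249-80945548 on the plus strand and Srsf12's at chr4:33209022-33209321 on the plus strand. The Hnrnpu and Srsf12 windows lie wholly within the gene coordinates given above, so for both the start used is an internal one.
Hnrnpu: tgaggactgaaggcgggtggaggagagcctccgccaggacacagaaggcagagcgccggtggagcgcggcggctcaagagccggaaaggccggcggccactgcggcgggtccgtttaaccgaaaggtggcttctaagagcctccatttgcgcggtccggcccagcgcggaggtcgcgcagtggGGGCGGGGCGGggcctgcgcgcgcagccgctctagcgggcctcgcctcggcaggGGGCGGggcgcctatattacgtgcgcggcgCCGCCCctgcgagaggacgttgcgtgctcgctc
Sf3b1: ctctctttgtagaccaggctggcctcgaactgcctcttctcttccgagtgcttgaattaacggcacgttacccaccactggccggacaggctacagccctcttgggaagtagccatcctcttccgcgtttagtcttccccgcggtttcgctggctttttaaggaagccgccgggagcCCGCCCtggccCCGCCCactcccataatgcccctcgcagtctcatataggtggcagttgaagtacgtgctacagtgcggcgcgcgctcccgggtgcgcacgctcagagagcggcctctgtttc
Srsf5: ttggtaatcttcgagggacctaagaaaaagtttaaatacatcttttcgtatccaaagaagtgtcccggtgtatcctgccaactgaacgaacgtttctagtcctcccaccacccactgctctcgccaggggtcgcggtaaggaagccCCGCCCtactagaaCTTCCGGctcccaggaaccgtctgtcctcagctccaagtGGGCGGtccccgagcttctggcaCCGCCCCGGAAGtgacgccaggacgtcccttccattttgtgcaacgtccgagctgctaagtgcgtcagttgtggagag
Srsf12: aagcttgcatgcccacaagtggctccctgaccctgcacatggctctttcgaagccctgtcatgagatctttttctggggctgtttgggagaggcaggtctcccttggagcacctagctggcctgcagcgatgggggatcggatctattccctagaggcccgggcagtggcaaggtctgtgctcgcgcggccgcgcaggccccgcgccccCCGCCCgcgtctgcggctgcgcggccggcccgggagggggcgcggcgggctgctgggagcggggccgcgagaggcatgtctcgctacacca
The Hnrnpu promoter held 4 SP matches, 2 of which share a base, and 41 CpG dinucleotides. The Sf3b1 promoter held 2 SP matches and 24 CpG. In the Srsf5 promoter there were 3 SP and 2 ETS matches and 20 CpG, and 1 SP and 1 ETS match share a letter. The Srsf12 promoter held 1 SP match and 26 CpG, so its CpG number lay within the range of the 3 highly expressed genes. For Hnrnpu and Srsf12 these counts describe sequence inside the gene and not upstream of it.

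Promoters were available in RefSeq's table for 59 of the 68 members, 80 in all, and for 11890 of the genes tested, 15081 in all. Members' promoters held a median of 25 CpG dinucleotides against 18 in all promoters, and a lower quartile of 20.75 against 8. The median GC content was similar (60.2% against 59.7%). The promoters were thus not matched for CpG number, nor the genes for level. The ETS letters CCGGAAG were found on either strand in 25 of the 80 promoters (31.3%), in 20 genes, against 14.3% of all promoters. The letters TGACGT, which begin the cAMP response element, were found in 18 (22.5%) against 10.2%. Smaller differences stood for CCAAT (38 promoters, 47.5% against 37.1%), for GGGCGG (51, 63.8% against 56.7%) and for CACGTG (11, 13.8% against 9.03%). TATAAA was found in 7 (8.75%) against 8.37%, the YY1 motif in 2 (2.50%) against 1.60%, and the NRF1 motif in 1 (1.25%) against 1.77%. Every motif counted except CCAAT and TATAAA contains a CpG, and the part of CpG number in these shares was not tested. Promoters of 1 gene may overlap, so these are counts of windows and not of independent genes. A match is a description of letters and no evidence of binding.

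The U1 snRNP was represented by 2 genes, both below the median member (39.3 CPM per kilobase). Snrpa, whose product binds a stem loop of the U1 RNA, had 31.5, 25.7 and 20.8 CPM (16.6 ± 3.41 CPM per kilobase) and lay above the median gene per kilobase (adjusted p = 2.48e-05). Snrpc, whose product steadies the pairing of U1 with the donor site, had 6.55, 3.35 and 7.82 CPM (7.76 ± 3.03 CPM per kilobase) and was not separated from the median gene (0.205). Both lay below 50 CPM. The libraries did not order the 2 genes alike: Snrpa was highest in replicate 1, and Snrpc was lowest in replicate 2, where it had 47 counts.

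Among the 14 genes of U2 and branch point recognition, 2 subunits of SF3b stood far above the rest. Sf3b1 (Entrez gene 81898, chromosome 1, 54985169 to 55027501), which clamps the branch point region and is recurrently mutated in myelodysplastic disease, had 896, 999 and 1145 CPM (164 ± 20.2 CPM per kilobase). Its partner Sf3b2 had 389.8, 555 and 454 CPM (144 ± 25.7 CPM per kilobase), and Sf3b3, a scaffold of the same complex, had 197, 271 and 222 CPM (53.5 ± 8.67 CPM per kilobase). Adjusted p against the median gene was 2.03e-09 for Sf3b1, 2.26e-09 for Sf3b2 and 2.78e-08 for Sf3b3. Replicate 3 was highest for Sf3b1, and replicate 2 was highest for Sf3b2 and Sf3b3. The group's median was 34.4 CPM per kilobase. The lowest were U2af1 and Sf3b4. U2af1 (Entrez gene 108121, chromosome 17, 31647081 to 31659148), whose product reads the AG of the acceptor site, had 13.1, 14.5 and 13.5 CPM (14.1 ± 0.764 CPM per kilobase), nearly equal in the 3 libraries. Sf3b4, an SF3b subunit that contacts RNA upstream of the branch point, had 9.72, 10.2 and 8.28 CPM (5.54 ± 0.589 CPM per kilobase) and could not be separated from the median gene (adjusted p = 0.969). Its log2 difference was 0.01 and turned negative whichever replicate was left out, to -0.60 without replicate 1. The third of the low genes was Sf3b5, a small SF3b subunit, with 16.3, 9.27 and 15.7 CPM, lowest in replicate 2. Of the 14 genes, 13 lay above the median gene per kilobase and 6 lay above 50 CPM, 5 below it, and 3 (Sf3a2, Sf3b6 and Snrpb2) on neither side. Sf3a2 did pass, above 50 CPM, without replicate 1 (0.0321).

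The Sm ring genes, short genes with low counts, had a median of 29.1 CPM per kilobase over the 7 that were tested. On the table's length all 7 lay above the median gene. Snrpd3 had 45.1, 47.00 and 62.96 CPM (85.6 ± 16.2 CPM per kilobase), Snrpb had 72.4, 68.2 and 72.1 CPM (63.2 ± 2.09 CPM per kilobase) and Snrpd1 had 31.7, 19.8 and 23.7 CPM (29.96 ± 7.24 CPM per kilobase). Snrpb varied least of all members between libraries (3.31% coefficient of variation), while Snrpd3 was highest in replicate 3 and Snrpd1 in replicate 1. At the lower end were Snrpg, with 3.91, 4.21 and 5.77 CPM (11.8 ± 2.55 CPM per kilobase), and Snrpf, with 9.62, 9.34 and 8.13 CPM (11.1 ± 0.975 CPM per kilobase). Adjusted p against the median gene ran from 7.37e-09 for Snrpd3 and 7.87e-09 for Snrpb to 0.0209 for Snrpg. Leaving out replicate 1 took the calls of Snrpd2, Snrpf and Snrpg (0.0735, 0.202 and 0.117), and Snrpg was also lost without replicate 3 (0.374). In CPM, Snrpb alone lay above 50 CPM (adjusted p = 0.00909), a call lost without replicate 3 (0.0777). Snrpd3 was on neither side, and 5 lay below. Snrpn, the imprinted relative of Snrpb that replaces it in neurons, had 0, 0.357 and 0 CPM, all of it from 5 counts in replicate 2.

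The 13 Prpf genes had a median of 28.1 CPM per kilobase, and 10 of them lay above 50 CPM. Among the highest were Prpf38b, a relative of a tri-snRNP factor, with 318, 442 and 487 CPM (138 ± 29.2 CPM per kilobase), and Prpf4b, a kinase of the spliceosome, with 402, 433 and 490.3 CPM (98.9 ± 10.04 CPM per kilobase). Prpf38b and Prpf4b were lowest in replicate 1 and highest in replicate 3. Prpf8 (Entrez gene 192159, chromosome 11, 75486777 to 75509447), which lies at the catalytic centre, had 408, 661 and 503 CPM (70.1 ± 17.1 CPM per kilobase) and was highest in replicate 2. The lowest were Prpf4, a U4/U6 protein, with 38.4, 38.2 and 33.1 CPM (6.98 ± 0.567 CPM per kilobase), and Prpf40b, with 17.96, 25.5 and 19.97 CPM (6.69 ± 1.23 CPM per kilobase). Against the median gene, adjusted p was 3.08e-09 for Prpf38b and 2.68e-08 for Prpf8, and Prpf4 (0.0682) and Prpf40b (0.172) were not separated. Above 50 CPM, the calls of Prpf3, Prpf19 and Prpf31 were lost when single libraries were left out. Prpf3 (adjusted p = 0.0478) had 0.173 without replicate 2 and 0.222 without replicate 3. Prpf19 (0.0137) had 0.0572 without replicate 2 and 0.0701 without replicate 3, and Prpf31 (0.0294) had 0.111 without replicate 1 and 0.125 without replicate 3. Below 50 CPM, Prpf4 (0.0300) had 0.256 without replicate 3.

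Subunits that work in fixed ratios within 1 complex did not have equal transcript levels. In SF3b, the highest subunit exceeded the lowest, Sf3b4, 25.2-, 28.6- and 37.9-fold per kilobase (30.6 ± 6.57, SD, n = 3). The highest was Sf3b1 in replicates 1 and 3 and Sf3b2 in replicate 2. In the Sm ring without Snrpn, the fold between the highest and lowest gene was 7.51, 7.27 and 10.4 (8.40 ± 1.76), with Snrpd3 highest in each library and Snrpg lowest in replicates 1 and 2 but Snrpf in replicate 3. Among the Prpf proteins of the tri-snRNP (Prpf3, Prpf4, Prpf6, Prpf8 and Prpf31), it was 7.45, 12.1 and 10.6 (10.1 ± 2.39), with Prpf8 above Prpf4. SF3a was the most even, at 2.23, 1.32 and 1.84 (1.80 ± 0.458), with Sf3a3 highest in replicates 1 and 3 and Sf3a2 in replicate 2, followed by U2AF at 2.16, 2.85 and 2.31 (2.44 ± 0.361). Over all 67 members, rather than within a complex, Pearson's r of log2 CPM per kilobase was 0.964 for replicates 1 and 2, 0.982 for replicates 1 and 3, and 0.976 for replicates 2 and 3. These correlations are across genes, which share length and counting in every library. The folds depend on the length used. With the longest coding transcript of GENCODE M21 in place of the table's length, the fold was 45.7 in SF3b, where Sf3b5 became the lowest, 13.9 in the Sm ring and 10.1 among the Prpf proteins. For Sf3b5 the table gives 734 bases and the longest transcript has 3841, and for Snrpd3 these are 604 and 3036, so the high level of Snrpd3 per kilobase (85.6) became 17.0. Snrpd2 went from 14.8 to 5.09 CPM per kilobase and Snrpg from 11.8 to 4.39. The median gene is not given on that length here. Such extremes also touched the hnRNP genes: Hnrnpr has 2675 bases in the table and 21452 in its longest transcript, and Hnrnpa2b1 has 4086 and 1728. Hnrnpll (15.9 CPM per kilobase) was then no longer the lowest hnRNP gene, with Hnrnpr at 6.50 and Hnrnph2 at 12.8. On the longest transcript Hnrnpu (142 CPM per kilobase) was no longer the highest member and lay below Hnrnpa2b1 (625), Srsf5 (183), Hnrnph1 (182), Sf3b1 (164) and Sf3b2 (145).

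**Figure D2:**
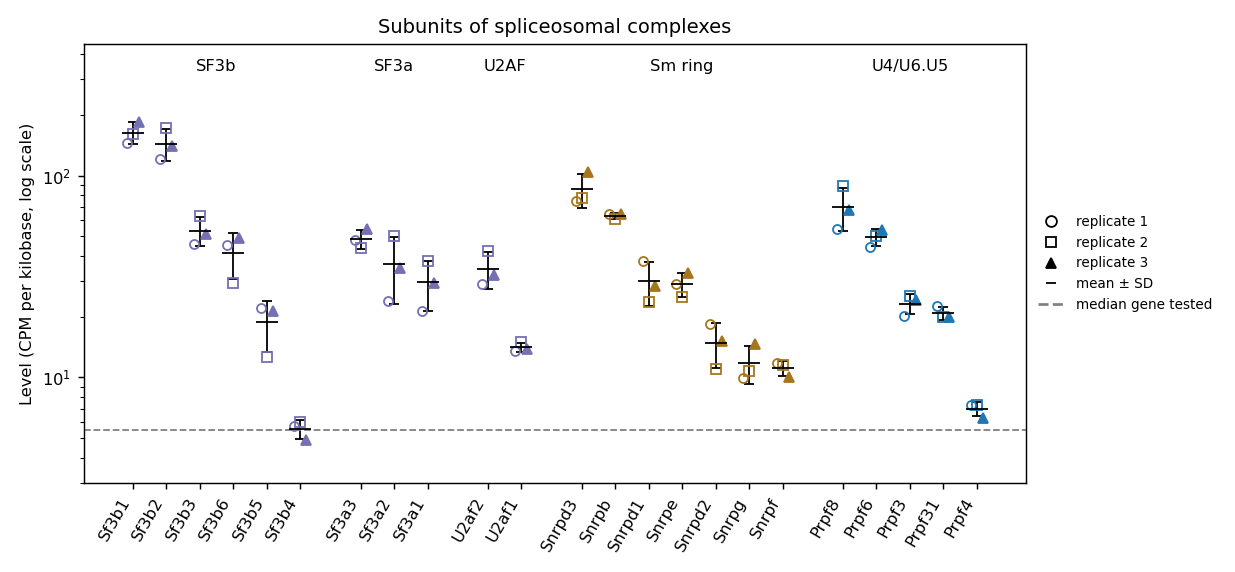
Levels in CPM per kilobase (log scale) of the subunits of 5 spliceosomal complexes, with 1 marker per library, a black bar at the mean and whiskers of 1 SD over the 3 libraries. Sf3b1 and Sf3b2 stand above 100 CPM per kilobase while Sf3b4 lies near the median gene, drawn as a dashed line.

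Of 8 pairs of related members, 7 could be compared within each library. Each pair kept its direction in all 3 libraries, and by an exact two-sided sign-flip permutation test each has p = 0.25, adjusted 0.25 over the 7 pairs, which is the smallest value that 3 libraries can give, so none can pass a threshold of 0.05. Hnrnph1 exceeded its X-linked relative Hnrnph2 by 3.00, 3.35 and 3.24 on the log2 scale per kilobase (3.20 ± 0.18, 9.17-fold), the largest of the differences per kilobase. As CPM without length it was 3.11, below the 3.48 of Hnrnpa2b1 minus Hnrnpa1. Hnrnpl, which binds CA repeats, had 73.8, 99.2 and 88.8 CPM per kilobase and exceeded Hnrnpll by 2.26, 2.90 and 2.22 (2.46 ± 0.38, 5.51-fold). Hnrnpa2b1 exceeded Hnrnpa1, which binds splicing silencers and had 68.5, 113 and 115 CPM, by 2.39 ± 0.37 (5.25-fold), most in replicate 1, where Hnrnpa1 was lowest. Each of these 3 differences was several times its SD. Srsf5 exceeded Srsf4, which had 87.1, 120.0 and 98.9 CPM, by 1.95 ± 0.21 (3.86-fold). Srsf3, the smallest SR protein, had 69.6, 79.7 and 106 CPM and lay below Srsf7, with a difference of -1.30 ± 0.07 (0.405-fold) that was the steadiest of the 7. Sf3b1 exceeded Sf3b3 by 1.62 ± 0.24 (3.07-fold). U2af2, which binds the polypyrimidine tract and had 64.04, 93.7 and 70.7 CPM, exceeded its partner U2af1 by 1.28 ± 0.21 (2.42-fold), most in replicate 2, where U2af2 was highest. Between Snrpb and Snrpn no difference was computed, because Snrpn was at 0 in replicates 1 and 3.

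Members varied little between libraries. Their median coefficient of variation was 16.8% (quartiles 11.4% and 20.8%), against 29.0% for all genes tested, most of which had lower counts. Among genes with a mean of 50 CPM or more, it was 14.8% for 47 members and 17.3% for 3852 genes. In 2 of the 67 members (2.99%) the highest library was at least 2 times the lowest, against 44.0% of all genes tested, and among the genes of 50 CPM or more in 1 of 47 (2.13%) against 8.49%. The 2 members were Snrpc (2.33-fold) and Sf3a2 (2.10-fold). Sf3a2 had 39.9, 83.8 and 58.6 CPM in replicates 1, 2 and 3. No member with a mean of 5 CPM or more reached a ratio of 3. For comparison, the cell cycle genes summed to 1269, 146 and 257 CPM and the erythroid genes to 4285, 64.6 and 308 CPM. The T cell genes, at 3269.6, 4125 and 4056 CPM, differed much less. Among genes of 50 CPM or more, the median ratio of highest to lowest library was 1.34 for members and 1.40 for all genes. The narrow range of the splicing genes was thus near that of other genes at this level.

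**Figure D3:**
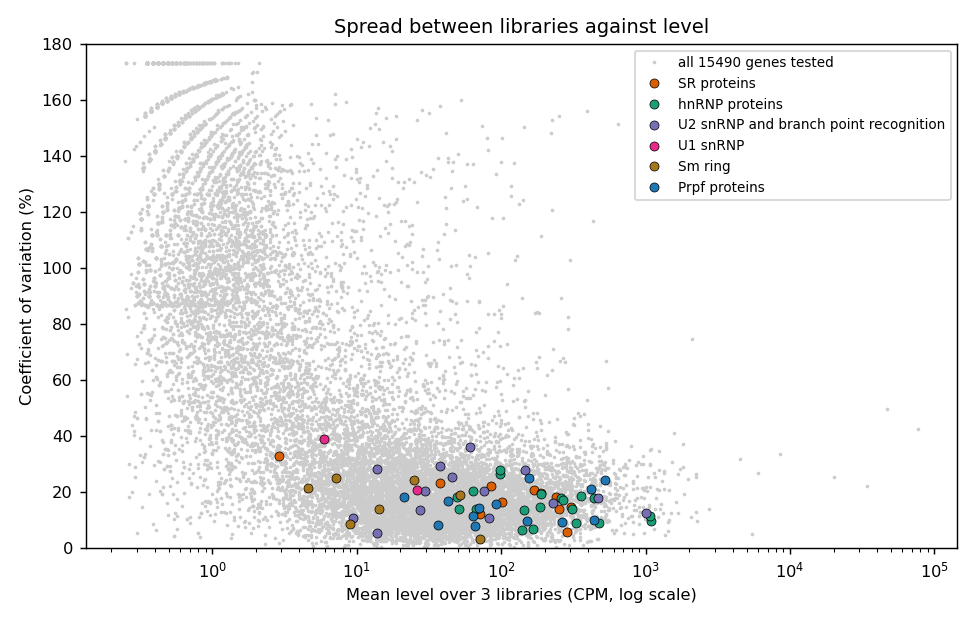
Coefficient of variation over the 3 libraries (%) against mean level (CPM, log scale) for all 15490 genes tested (grey) and for the 67 members, coloured by role. The members lie in the lower part of the cloud, and Snrpc, in pink, has the largest value among them, 38.99%.

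Within that narrow range the libraries were ordered. Replicate 3 was the highest library for 39 of the 67 members (58.2%), against 22.8% of all genes tested, and replicate 1 was the lowest for 44 (65.7%), against 35.2% of all genes tested. Among genes of 50 CPM or more, replicate 3 was highest for 29 of 47 members (61.7%), against 35.4% of 3852 genes, and replicate 1 was lowest for 39 (83%), against 71.7%. At this level the lowest place of replicate 1 was thus common to most genes. Over all tested members, the share highest in replicate 3 was largest for SR genes (8 of 11) and hnRNP genes (14 of 20). It was lower for U2 genes (6 of 14), of which 7 were highest in replicate 2. With library totals in place of TMM factors, a scaling chosen after seeing the data for this count, replicate 3 was highest for 31 members (46.3%), against 15.4% of all genes. Replicate 2 was then highest for 24 members (35.8%), against 34.6% of all genes. Among the 47 members of 50 CPM or more, replicates 3 and 2 were then nearly level, highest for 23 (48.9%) and 21 (44.7%). The shares of the 3852 genes were 23.4% and 60.7%. Replicate 3 also had the highest summed neutrophil genes, and replicate 1, where most members were lowest, the highest summed erythroid, macrophage and cell cycle genes. Their part in this order was not tested.

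Short members were more often lowest in replicate 2 than long ones. Its log2 level minus the mean of replicates 1 and 3, taken on CPM + 0.5, was -0.997 for Snrpc, -0.76 for Sf3b5 and -0.57 for Snrpd2, which have under 1000 bases in the table. It was 0.76 for Sf3a2, 0.57 for Sf3a1 and 0.54 for Prpf8, which are longer. Members of both lengths went the other way: among longer ones it was -0.76 for Snrpb2 (1230 bases), -0.68 for Sf3b6 (1116 bases) and -0.48 for Hnrnpc (2844 bases), and among short ones 0.07 for Snrpf and 0.12 for U2af1. Of the 10 members under 1000 bases, 5 (50%) were lowest in replicate 2, with a median difference of -0.25, and of the 57 longer ones 14 (24.6%), with a median of 0.03. Among all genes of at least 5 CPM, 57.5% of 659 short genes and 26.3% of 8931 longer genes were lowest in replicate 2 (medians -0.30 and 0.12). The length limit was chosen after the data were seen and was changed once with its results known. Over limits between 1000 and 1500 bases in steps of 50, the share of short members lowest in replicate 2 ran from the 50% given to 61.5% (8 of 13, at 1250 bases) and that of longer members between 19.2% and 24.6%, and for all genes these were between 50.8% and 57.5% and between 24.3% and 26.3%. Over the 67 members, Pearson's r of this difference with log2 length was 0.50 and Spearman's rho 0.44, against 0.14 and 0.20 over 9590 genes. With the GC content of the transcript, Pearson's r and Spearman's rho were both 0.43 over members, against 0.16 and 0.30 over 9351 genes. These are correlations across genes that share the same 3 libraries. Replicate 2 had the lowest share of mitochondrial ribosomal RNA (6.22%), and whether this bears on short genes was not tested.

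**Figure D4:**
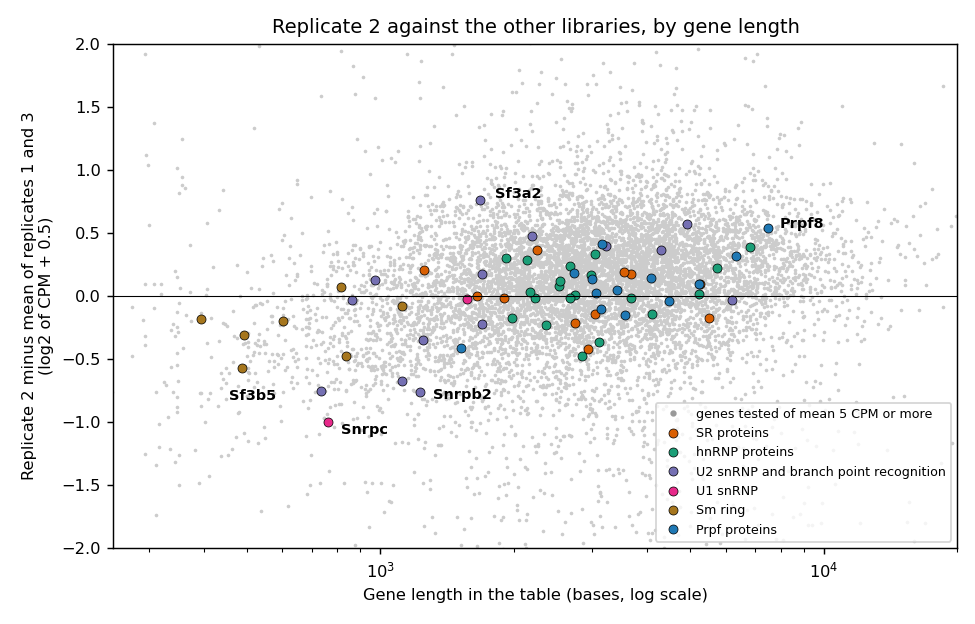
Replicate 2 minus the mean of replicates 1 and 3 (log2 of CPM + 0.5) against gene length in the table (bases, log scale) for genes with a mean of 5 CPM or more (grey, 307 of them outside the axes) and for the 67 members, coloured by role. Short members lie mostly below 0, with Snrpc lowest, and Sf3a2 and Prpf8 lie above it.

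Many of these genes have processed pseudogenes, which can draw reads away from them or send reads to them. In GENCODE M21, 34 members had no pseudogene transcript that matched their own transcripts at 90% identity or more over at least 50% of the pseudogene, 23 of those tested had 1 or 2, and 10 had 3 or more. Hnrnpa3 had 34 copies, Hnrnpa1 had 17, Snrpc had 8, Hnrnpf had 7 and Snrpa had 6. The median level was 56.0 CPM per kilobase for members without copies, 30.9 for those with 1 or 2, and 17.7 for those with 3 or more, which ranged between 7.76 and 51.5. The sources used here do not say how reads with several matches were treated. Levels of the 10 genes, among them U2af1, U2af2, Srsf3, Snrpf and Snrpg, are therefore uncertain, and the part of the copies in their lower levels was not tested. Overlapping genes are a second source of doubt. At least 10% of exonic bases were shared with another gene on the same strand in Hnrnpm, Snrpn and U2af1l4, of which U2af1l4 shared 65.6%, and with a gene on the other strand in 8 members, up to 85.4% in Snrpf and 43.0% in Srsf4. Whether the counting used strand is not stated in them either.

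Several families of splicing factors control their own level by splicing an exon that leads to nonsense-mediated decay. A transcript annotated for such decay was present for 9 of the 11 SR genes (81.8%), for 10 of the 20 hnRNP genes (50%) and for 34 of all 68 members (50%), against 26.4% of the 14869 genes tested with a match in GENCODE M21. A transcript with a retained intron was annotated for 50 of the 68 members (73.5%), against 55.0%. Members also had more annotated transcripts: a median of 7 for SR genes, 8 for hnRNP genes and 6 for all members, against 5. The part of this number in the shares was not tested. Counts per gene sum over these isoforms, and total RNA includes unspliced and nuclear transcripts, so the levels above do not separate productive from decaying messages.

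Other genes of the pathway, taken from lists chosen by function, were also mostly high, with the LSm proteins lower. Of all genes tested, 19.9% lay above 50 CPM and 66.7% below it. Against the median gene per kilobase, 43% of all genes tested lay above and 19.1% below. Of 20 U snRNP proteins outside the name rule, 12 lay above 50 CPM and 8 below, and 16 lay above the median gene per kilobase and 1 below (median 20.2 CPM per kilobase). The number below the median gene was 2 without replicate 1 and 0 without replicate 3. Snrnp70, which binds the U1 RNA, had 170.0, 297 and 272 CPM (150.4 ± 41.2 CPM per kilobase), well above its U1 partners Snrpa and Snrpc, and Sf1, the first protein to bind the branch point, had 256, 409 and 364 CPM (78.7 ± 17.98 CPM per kilobase). The lowest were Snu13, with 4.12, 1.85 and 4.78 CPM, and Ppih, a cyclophilin of the tri-snRNP, with 6.34, 9.27 and 5.54 CPM. Of the 7 LSm proteins, which ring the U6 RNA, 6 lay below 50 CPM and 4 above the median gene per kilobase (median 9.06), a number that was 3 whichever replicate was left out, with Lsm4 (45.02 ± 3.93 CPM per kilobase) and Lsm3 (40.4 ± 9.74 CPM per kilobase) highest and Lsm5 (6.40 ± 2.28 CPM per kilobase) and Lsm7 (4.74 ± 2.45 CPM per kilobase) lowest. All 20 Prp19 partners and step helicases lay above the median gene per kilobase, and 15 above 50 CPM and 2 below (median 37.1 CPM per kilobase). Syf2 (118 CPM per kilobase) and Ddx39b (101), a helicase of early assembly and export, were highest, and Ctnnbl1 (22.6) and Plrg1 (20.97) lowest. The 2 calls below 50 CPM were lost whichever replicate was left out.

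The SR-related proteins and SR protein kinases were the highest list, with a median of 82.9 CPM per kilobase. Of 19 genes, 18 lay above 50 CPM and 18 above the median gene per kilobase, against 19.9% and 43% of all genes tested. Rbm39 had 649, 648 and 892 CPM (259 ± 50.04 CPM per kilobase) and Srrm2, a scaffold of nuclear speckles, had 1252, 2297 and 1879 CPM (210.4 ± 61.2 CPM per kilobase), while Luc7l had 20.4 ± 4.61 CPM per kilobase and Srpk3, an SR protein kinase of muscle, had 6.76, 1.64 and 5.77 CPM (2.41 ± 1.38 CPM per kilobase). Srrm2 was lowest in replicate 1 and highest in replicate 2. Of 25 other RNA-binding regulators, 23 lay above 50 CPM and 24 above the median gene per kilobase (median 62.1), the second number being 23 whichever replicate was left out. Mbnl1, a regulator of developmental splicing, led them with 1322, 1441 and 1493 CPM (244 ± 15.1 CPM per kilobase), followed by Sfpq (176 ± 33.5 CPM per kilobase), and Mbnl3 (7.92 ± 1.33 CPM per kilobase) and Rbfox2 (4.23, 0.143 and 0.532 CPM) were lowest. Rbfox2 lay below the median gene per kilobase, a call lost without replicate 1 and without replicate 3. Regulators known mainly from neurons, muscle and epithelia were mostly at the other end of the scale. Of 18 in the table, 16 were tested. Below 50 CPM lay 13 of the 16, against 66.7% of all genes tested. Below the median gene per kilobase lay 8 of the 16 (median 0.198), against 19.1% of all genes tested. Ptbp2 alone lay above either level, with 54.8, 62.05 and 81.8 CPM (19.7 ± 4.15 CPM per kilobase, adjusted p = 0.0392 against 50 CPM). Without replicate 3 Ptbp2 was no longer above 50 CPM, 1 gene lay below 50 CPM and 1 below the median gene per kilobase, and without replicate 1 the number below 50 CPM was 6. Next came Khdrbs2 (2.11, 0 and 0.228 CPM), and the lowest were Nova1 (1.37, 0.0713 and 0 CPM) and Elavl2 (0.634, 0 and 0 CPM). Of these 18 genes, 17 were highest in replicate 1, as were 45.2% of all genes tested and 10.6% of genes of 50 CPM or more. All but Ptbp2 had few counts, and the share among genes of similar low level was not computed. Over the whole table, 632, 3788 and 2199 genes stood at 0 in replicates 1, 2 and 3, so replicate 1 had the fewest. Rbfox1 was not analysed here.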

How the data were processed

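Whole-number read counts per gene were used as the authors deposited them, with Entrez identifiers and a gene length in bases. The input was 8 ng of total RNA and the kit a stranded one for very small inputs, per the labels' protocols. The submitters' processing notes name bcl2fastq, STAR 2.75, featureCounts, DESeq2 1.18.1 and mm10, with no role for each. Annotation, strand setting and any gene filter are not stated in those sources. A single length per gene cannot represent every isoform, and total RNA includes nuclear and unspliced transcripts.

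Symbols were taken from the table, 25 that had turned into dates were restored, and 17795 identifiers matched RefSeq genes of GRCm38.p6, which gives the coordinates. CPM were computed in edgeR 4.0.16 (R 4.3.3) with TMM factors of 1.04, 1.01 and 0.950. Genes with under 10 counts in sum, 2367 of 17857, were not tested. edgeR's quasi-likelihood test was run with an intercept alone and the fixed level in the offsets. Since the packaged test needs 2 coefficients, its F statistic was built from the same deviances and dispersions, and it was tested on simulated data. Alternatives used DESeq2 1.42.0, limma 3.58.1, other scalings and filters, and each replicate left out. Pseudogenes were searched with BLAST+ 2.17.0 in GENCODE M21.

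Members were given by a name rule, and the lists, pairs and tests were chosen with earlier results of these data known. Named with values in each library were the 3 highest and 2 lowest genes per kilobase of each role group, the pairs, Hnrnpll, Srsf1, Srsf2, Sf3b1, U2af1 and Prpf8, members of at least 5 CPM with a ratio between libraries of 3 or more, of which there were 0, and the 2 highest and 2 lowest of each pathway list. Sf3b5, Sf3a2, Sf3a1, Snrpd2 and the genes whose calls rest on 1 library were chosen after their values were seen. The values of 1 member are not reported here.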

Additional observations from a re-analysis of the deposited data

How the results depend on the processing

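The number of members above 50 CPM (43) stayed between 37 and 45, and the number above the median gene per kilobase (62) between 56 and 65, over the alternatives tried. Of 2211 tests of a member under an alternative, 2156 kept their direction and call. With the direction kept, 24 lost and 12 gained a call. The other 19 reversed in direction, and some of these also lost or gained a call. With mitochondrial ribosomal RNA left out, members' levels moved up by a median of 0.19 (log2 CPM), and against 50 CPM Hnrnpll became 0.18 and Sf3b6 0.072 (log2 difference). Without 1 replicate, log2 differences from 50 CPM changed sign, ranging between -0.053 and 0.096 for Hnrnph2, -0.13 and 0.095 for Hnrnpll, -0.028 and 0.48 for Sf3a2, -0.23 and 0.068 for Sf3b6, and -0.081 and 0.11 for Snrpd3. Per kilobase, edgeR's filterByExpr tests fewer low genes, which placed members lower by a median of -1.03 (log2) against the median gene: Prpf19 became -0.013, Prpf4 -0.68, Prpf40b -0.75, Sf3b4 -1.01, Snrpc -0.52 and Snrpf -0.0087, and 4 members lay below it instead of 1. Without 1 replicate, the range was between -0.28 and 0.28 for Prpf4, -0.20 and 0.17 for Prpf40b, -0.60 and -0.055 for Sf3b4, and -0.17 and 0.75 for Snrpc.

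Of all genes, 10336 lay below 50 CPM, 6202 with filterByExpr, and between 5513 and 10588 without 1 replicate. Below the median gene per kilobase lay 2963, against 1704 with no filter, 6171 in the DESeq2 Wald test, 6724 in limma voom and between 960 and 4879 without 1 replicate, where members below it numbered between 0 and 1. The cause was not tested. As CPM without length, the log2 differences were 2.45 for U2af2 minus U2af1, 1.92 for Hnrnpl minus Hnrnpll, -1.16 for Srsf3 minus Srsf7, 1.502 for Srsf5 minus Srsf4, 3.48 for Hnrnpa2b1 minus Hnrnpa1 (above the 3.11 of Hnrnph1 minus Hnrnph2, the largest per kilobase) and 2.15 for Sf3b1 minus Sf3b3. Subunit folds on transcript lengths, library totals for the order of libraries, and the length limits, were added after seeing the data. Snrpb minus Snrpn gave no value under any setting. No paired analysis was possible because there is 1 group. Depth limits Srsf12 and Snrpn, read from few counts.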
